A study of Homo sapiens with 6 samples.

Results

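The genes described are 10 members of the stress response run by the transcription factors ATF4 and CHOP, measured in HuCCT-1, an established human cholangiocarcinoma line (a cancer of the bile duct epithelium). They are ATF4, DDIT3 (which encodes CHOP), ATF3, ASNS, CHAC1, TRIB3, PSAT1, PHGDH, SLC7A11 and DDIT4, chosen by name and found through their Ensembl identifiers among 60605 genes. Cells were given the PRMT5 inhibitor JNJ-64619178 at 6 nM for 4 days (PRMT5 methylates arginines in histones and splicing proteins), or an equal volume of the solvent DMSO, with 3 libraries of polyadenylated RNA in each group. Nothing in the labels ties the 3 libraries of a group to separate cultures, and p-values therefore measure only the spread between these libraries, which may be technical. The genes were chosen with earlier results of these data known. The question was how this arm of the stress response stood in inhibitor-treated cells.

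The integrated stress response starts when kinases phosphorylate the translation initiation factor eIF2. Bulk protein synthesis then slows, while translation of the ATF4 mRNA goes up, so the ATF4 protein is controlled largely at a step that RNA sequencing does not measure. ATF4 acts with other bZIP proteins to switch on genes for amino acid supply, tRNA charging and glutathione turnover, and also DDIT3, ATF3 and TRIB3. Endoplasmic reticulum stress reaches the same pathway through the kinase PERK, and lack of amino acids reaches it through GCN2.

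The inhibitor did not move the 10 genes as a block. DDIT3, TRIB3 and SLC7A11 fell, ATF3 rose, and ASNS rose in a call that several alternative settings ended. ATF4, CHAC1, PHGDH and DDIT4 did not pass the test, and PSAT1 had too few counts to be tested. Of the 9 tested members, 5 were called by edgeR's quasi-likelihood test at an adjusted p under 0.05, against a background of 37.1% of all 17371 tested genes. The 2 calls upward compare with 20.0% of all genes and the 3 calls downward with 17.1%. The libraries of the 2 groups did not overlap in 5 of the 9, against 47.0% of all tested genes. The median log2 fold change, inhibitor over DMSO, was -0.04 over the 9 tested members and 0.0014 over all tested genes.

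Depth was 24315685, 28224911 and 23931991 counts in the inhibitor libraries, and 30194024, 28133746 and 30691914 counts in the DMSO libraries. Over all genes 3478 rose and 2970 fell; with upper-quartile scaling in place of TMM the split was 2800 and 4099. The 7 biliary epithelial markers were all expressed, with a summed level of 4556 to 4824 CPM (the count relative to the TMM-scaled library size) in inhibitor libraries and 5632 to 5905 CPM in DMSO libraries. Of them, 4 fell, among them the keratins KRT7, KRT18 and KRT8, and 1 rose. The 13 markers of blood, endothelial, stromal and liver cells summed to 2.37 to 2.97 CPM with the inhibitor and 1.28 to 1.88 CPM with DMSO, no single value passed 0.945 CPM, and 2 of them, TTR among these, were at 0 in every library. The part that these marker differences have in the results below was not tested, and in bulk RNA fewer cells of a kind cannot be told apart from less RNA per cell.

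Stretches of promoter are shown for the members whose sequence holds the composite site that ATF4 binds with C/EBP proteins. The C/EBP-ATF element, searched as TGATGNAAN on both strands in the 250 bases before each RefSeq start (GRCh38.p14), was found in 3 of the 9 members with a promoter in the table, against 3.87% of the 27305 genes in the table (3.13% of its 35116 promoters, since a gene can have several). SLC7A11 was not among those 9. The element's match is in capitals, with 10 bases on each side, read 5′ to 3′ along the gene.
ATF3, chr1:212565206-212565234, plus strand: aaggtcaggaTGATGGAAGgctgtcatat
ASNS, chr7:97872458-97872486, minus strand: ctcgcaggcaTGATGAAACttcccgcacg
CHAC1, chr15:40953251-40953279, plus strand: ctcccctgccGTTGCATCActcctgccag
The ATF3 stretch runs from position -201 to -173 relative to the start, the ASNS stretch from -78 to -50, and the CHAC1 stretch from -220 to -192. In CHAC1 the element lies on the opposite strand, so the capitals show its reverse complement. DDIT3 has 2 RefSeq promoters here, and for comparison a stretch of the first is shown, from -120 to -21. The stretch is without capitals because it holds no exact match of the motifs searched. It does hold CCAAT, 9 bases and CCACT. That differs only in the last letter from the endoplasmic reticulum stress element as searched (CCAAT, 9 bases, CCACG). Inexact matches, and sites farther than 250 bases from the start, were not searched.
DDIT3, chr12:57520535-57520634, minus strand: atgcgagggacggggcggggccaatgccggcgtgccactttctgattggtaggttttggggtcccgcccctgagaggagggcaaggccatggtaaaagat
The cyclic AMP response element TGACGTCA (2.03% of all genes, 1.65% of promoters), the endoplasmic reticulum stress element (0.09% and 0.07%) and the NRF2 element TGACNNNGC (13.22% and 10.91%) had no exact match in the 9 members in this window. The first and last of these share the letters TGAC. A match is a description of letters, not a measured binding site.

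ATF4, the transcription factor at the head of the pathway (ENSG00000128272, chromosome 22, 39519695 to 39522685, plus strand, 4 exons at most), was an abundant mRNA in both groups. All gene positions are from GENCODE release 29 on GRCh38. ATF4 had 332, 353 and 344 CPM in the inhibitor libraries, against 348, 351 and 359 CPM in the DMSO libraries. The ranges overlapped. Its log2 fold change was -0.04 with a 95% interval of -0.13 to 0.05 and an adjusted p of 0.485. Per kilobase of exon it stood above 99.1% of tested genes in both groups. Processed pseudogenes of ATF4 took few reads, at most 64 counts in a library for ATF4P3, against at least 8111 for ATF4.

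**Figure D1:**
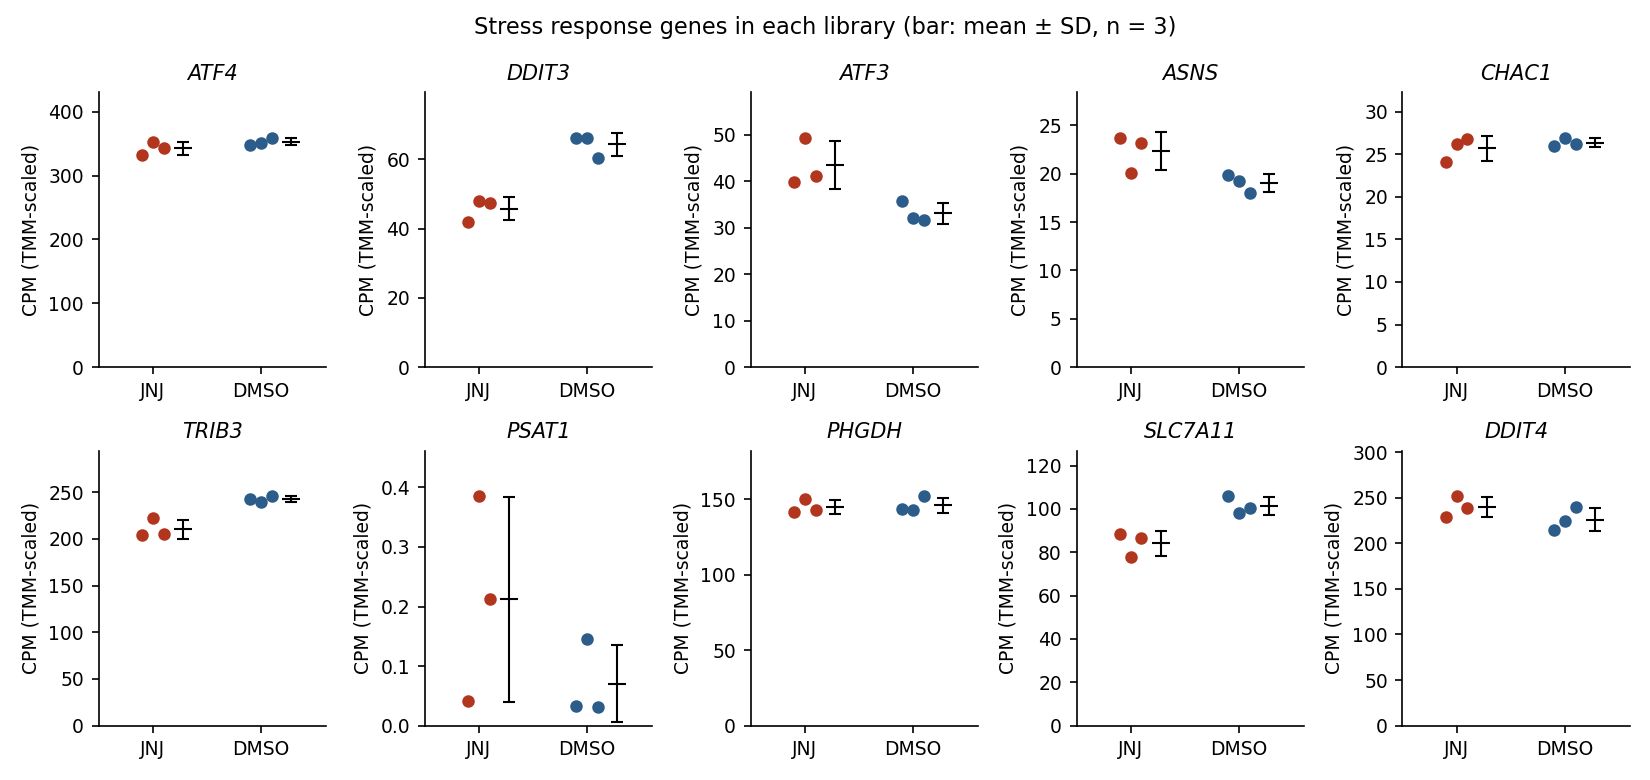
Level of each of the 10 genes in every library, in TMM-scaled CPM (y axis, own scale per gene), with inhibitor (JNJ) libraries left and DMSO libraries right; each point is a library and the bar beside the points is the mean ± SD of 3. DDIT3, TRIB3 and SLC7A11 sit lower with the inhibitor and ATF3 and ASNS higher, with no overlap in these 5.

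DDIT3 encodes CHOP, a bZIP factor that ATF4 induces and that drives cell death genes under lasting stress (ENSG00000175197, chromosome 12, 57516588 to 57521737, minus strand). It had 41.9, 48.1 and 47.3 CPM with the inhibitor, against 66.2, 66.2 and 60.5 CPM with DMSO. Every inhibitor library lay below every DMSO library. DDIT3 fell to 0.713 times its DMSO level, a log2 fold change of -0.49 (SE 0.06, 95% interval -0.61 to -0.37, adjusted p = 3.59e-07), the largest change among the 9 tested members. The gene overlaps MARS1 and MBD6 on the opposite strand and MIR616 on its own, and whether counting used strand is not stated in the labels. MIR616 held 17 to 23 counts with the inhibitor and 30 to 33 with DMSO, while DDIT3 held 1031 to 1374 and 1828 to 1976. MARS1 held more, 9344 to 11280 counts with the inhibitor and 10384 to 11413 with DMSO. MBD6 also held more, 2435 to 2919 and 2946 to 3242. Whether reads of these neighbours entered the DDIT3 counts was not tested.

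ATF3, a bZIP repressor that many stresses induce (ENSG00000162772, chromosome 1, 212565334 to 212620777, plus strand), went the other way. It had 39.9, 49.3 and 41.0 CPM with the inhibitor, against 35.7, 32.0 and 31.6 CPM with DMSO. The inhibitor libraries were all above the DMSO libraries, with replicate 2 of the inhibitor the highest. ATF3 rose to 1.31 times its DMSO level, with a log2 fold change of 0.39 (SE 0.07, 95% interval 0.24 to 0.54, adjusted p = 0.000113). DDIT3 and ATF3 counts were close to equal in inhibitor libraries, with ratios of DDIT3 to ATF3 of 1.05, 0.976 and 1.15, against 1.85, 2.07 and 1.92 in DMSO libraries. The ratios did not overlap between the groups, which follows from the separation of the 2 genes in opposite directions. This ratio was not among the planned results.

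TRIB3, a pseudokinase that ATF4 and CHOP induce and that feeds back on ATF4 (ENSG00000101255, chromosome 20, 362835 to 397559, plus strand), was lower with the inhibitor. Its level was 204, 222 and 205 CPM in inhibitor libraries, against 243, 239 and 246 CPM in DMSO libraries. The groups did not overlap, and the DMSO libraries were the closer together. The log2 fold change was -0.21 (SE 0.05, 95% interval -0.30 to -0.11, adjusted p = 0.000881), or 0.868 times the DMSO level.

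Of the members that supply amino acids, SLC7A11 was the one that fell. It is the cystine and glutamate exchanger that brings in cystine, a source of cysteine for glutathione (ENSG00000151012, chromosome 4, 138164097 to 138242349, minus strand). SLC7A11 had 88.2, 77.6 and 86.8 CPM with the inhibitor, against 106, 98.0 and 100.3 CPM with DMSO. All inhibitor libraries were below all DMSO libraries. The log2 fold change was -0.27 (SE 0.05, 95% interval -0.38 to -0.16, adjusted p = 0.000250), or 0.830 times the DMSO level. The calls for DDIT3, ATF3, TRIB3 and SLC7A11 were kept in all 13 alternatives of scaling, filter, tool, replicate block and left-out library.

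ASNS makes asparagine and is one of the best known ATF4 targets (ENSG00000070669, chromosome 7, 97852118 to 97872542, minus strand). It had 23.7, 20.1 and 23.2 CPM with the inhibitor, against 19.9, 19.2 and 18.0 CPM with DMSO. The inhibitor libraries were above the DMSO libraries, but inhibitor replicate 2 and DMSO replicate 1 nearly met. ASNS rose by 0.23 on the log2 scale (SE 0.08, 95% interval 0.07 to 0.39, adjusted p = 0.0219). The call ended in 6 of 13 alternatives: adjusted p was 0.0520 with DESeq2, 0.0830 with upper-quartile scaling, 0.0944 without inhibitor replicate 1, 0.0907 without inhibitor replicate 3, 0.0615 without DMSO replicate 2 and 0.119 without DMSO replicate 3. An unnamed transcript on the same strand, ENSG00000284707, overlaps ASNS and held 41 to 61 counts with the inhibitor and 51 to 68 with DMSO.

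CHAC1, which cleaves glutathione and responds strongly to ATF4 and CHOP, was not changed beyond the replicate spread (ENSG00000128965, chromosome 15, 40952962 to 40956519, plus strand). It had 24.03, 26.2 and 26.8 CPM with the inhibitor, against 25.9, 26.9 and 26.2 CPM with DMSO. The ranges overlapped, and the log2 fold change was -0.04 (95% interval -0.17 to 0.10, adjusted p = 0.693). DDIT4 encodes REDD1, which holds back mTORC1 and is also induced by hypoxia and p53 (ENSG00000168209, chromosome 10, 72273920 to 72276036, plus strand). DDIT4 had 229, 251 and 238 CPM with the inhibitor, against 214, 224 and 239 CPM with DMSO. DMSO replicate 3 lay among the inhibitor libraries, and the log2 fold change of 0.09 (95% interval -0.02 to 0.19) had an adjusted p of 0.179.

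**Figure D2:**
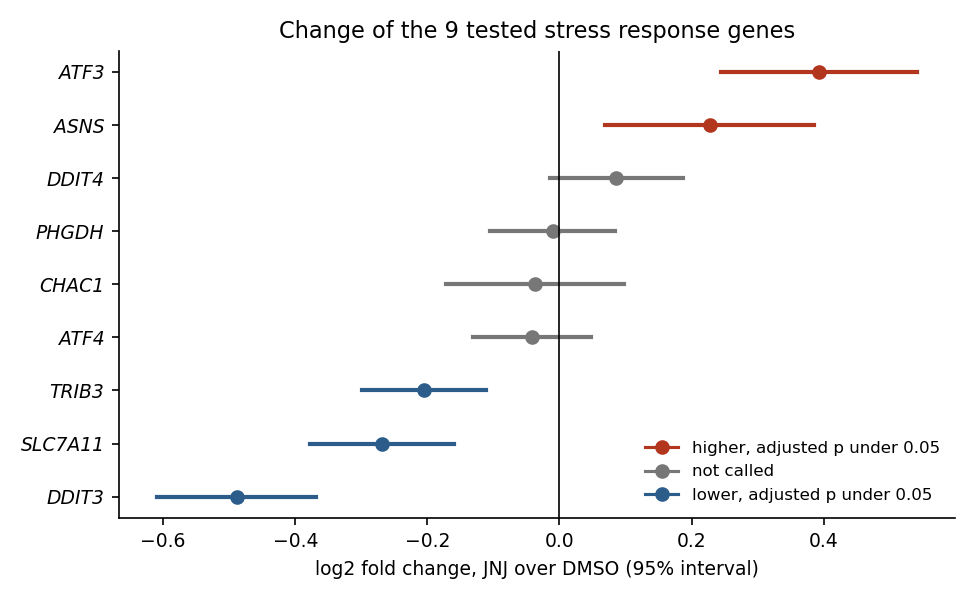
Log2 fold change, inhibitor over DMSO, of the 9 tested genes (x axis), with 95% intervals from edgeR's quasi-likelihood fit; red and blue mark genes called higher and lower with the inhibitor (JNJ) at an adjusted p under 0.05, and grey those not called. DDIT3 lies farthest below 0 at -0.49 and ATF3 farthest above at 0.39.

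Of the serine synthesis enzymes, PHGDH was well expressed and did not pass the test, and PSAT1 was barely detected. PHGDH, the first enzyme of serine synthesis (ENSG00000092621, chromosome 1, 119648411 to 119744226, plus strand), had 141, 151 and 143 CPM with the inhibitor, against 143, 143 and 152 CPM with DMSO. The ranges overlapped, and the log2 fold change was -0.01 (95% interval -0.11 to 0.08, adjusted p = 0.889). PSAT1, the next enzyme (ENSG00000135069, chromosome 9, 78297143 to 78330093, plus strand), had 1, 11 and 5 counts with the inhibitor and 1, 4 and 1 counts with DMSO. These counts did not pass the filter on low values, and with no filter its adjusted p was 0.256. Per kilobase, PHGDH averaged 15.7 ± 0.523 CPM with the inhibitor and 15.8 ± 0.554 with DMSO (SD, n = 3 each), whereas PSAT1 averaged 0.0971 ± 0.0787 and 0.0321 ± 0.0296 (SD, n = 3 each). PSPH, which completes serine synthesis after PSAT1, stood at 9.45 ± 0.281 and 10.6 ± 0.581 CPM per kilobase, well above PSAT1 in both groups.

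Of 10 other enzymes of serine, glycine and one-carbon metabolism, 9 were tested, 2 rose, 2 fell and 5 did not pass, with a median log2 fold change of 0.0055. For this list and all lists below, the background is 20.0% of all tested genes called higher and 17.1% called lower. No list was tested as a set. SHMT2, the mitochondrial enzyme that splits serine into glycine and a one-carbon unit, rose to 242 ± 6.52 CPM, against 209 ± 5.40 CPM with DMSO (SD, n = 3 each; log2 fold change 0.21, adjusted p = 0.000470). CTH, which makes cysteine, fell by 0.38 on the log2 scale (12.2 ± 0.500 CPM, against 15.9 ± 0.821 CPM; adjusted p = 0.000728). SHMT1, the cytosolic counterpart of SHMT2, rose by 0.36 (adjusted p = 0.0281), and PSPH fell by 0.17 (adjusted p = 0.0436). SHMT1 lost its call with DESeq2 (0.0608), upper-quartile scaling (0.0620) and without inhibitor replicate 1 (0.0673), inhibitor replicate 2 (0.0791) or DMSO replicate 1 (0.140). PSPH lost its call with DESeq2 (0.0707), no filter (0.0574), the replicate block (0.0554) and without inhibitor replicate 1 (0.122), inhibitor replicate 3 (0.0844), DMSO replicate 2 (0.0782) or DMSO replicate 3 (0.155). CBS was listed at 0 in all 6 libraries. The treatment of multi-mapping reads is not known, so this value was not read as absence of the mRNA.

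Levels were compared between the genes per kilobase of annotated exon. ATF4 was the highest, at 136 ± 4.06 CPM per kilobase with the inhibitor and 140.4 ± 2.25 with DMSO, followed by DDIT4 (117 ± 5.41 and 109.8 ± 6.07), TRIB3 (61.3 ± 2.98 and 70.6 ± 0.921) and DDIT3 (35.0 ± 2.57 and 49.2 ± 2.52; SD, n = 3 each). PHGDH (15.7 and 15.8) and CHAC1 (12.5 ± 0.710 and 12.8 ± 0.243) came next. ATF3 (10.7 ± 1.27) stood above SLC7A11 (8.73 ± 0.596) with the inhibitor, whereas SLC7A11 (10.5 ± 0.417) stood above ATF3 (8.20 ± 0.561) with DMSO. ASNS was low, at 5.01 ± 0.443 and 4.27 ± 0.210, and PSAT1 lowest. Neighbours in this order did not overlap between their libraries in either group, except CHAC1 and ATF3 with the inhibitor. The exon lengths join all annotated isoforms, which for PHGDH and SLC7A11 add up to 9217 and 9645 bases and lower their values per kilobase.

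Because scaling bears on small changes, the members were also set against ATF4 itself as counts per 100 ATF4 counts of the same library, a measure chosen after seeing the data. DDIT3 had 12.6, 13.6 and 13.8 counts per 100 ATF4 counts with the inhibitor, against 19.0, 18.8 and 16.9 with DMSO. ATF3 had 12.0, 14.0 and 11.9, against 10.3, 9.11 and 8.80. TRIB3 had 61.4, 63.0 and 59.7, against 69.7, 68.1 and 68.4. None of these 3 overlapped between groups. SLC7A11 averaged 24.6 ± 2.33 and 28.7 ± 1.43, and DDIT4 69.9 ± 1.25 and 64.0 ± 2.51 counts per 100 ATF4 counts (SD, n = 3 each), again without overlap, although DDIT4 overlapped in CPM. For these 5 of 8 genes the exact two-sided permutation p was 0.1, the smallest that 3 against 3 libraries allow. Groups that do not overlap always give this value, so it adds nothing to the lack of overlap. The share of all genes without overlap in this measure was not computed. In CPM it was 47.0%. ASNS and PHGDH had p = 0.2 and CHAC1 p = 1.0 in the same exact permutation test.

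**Figure D3:**
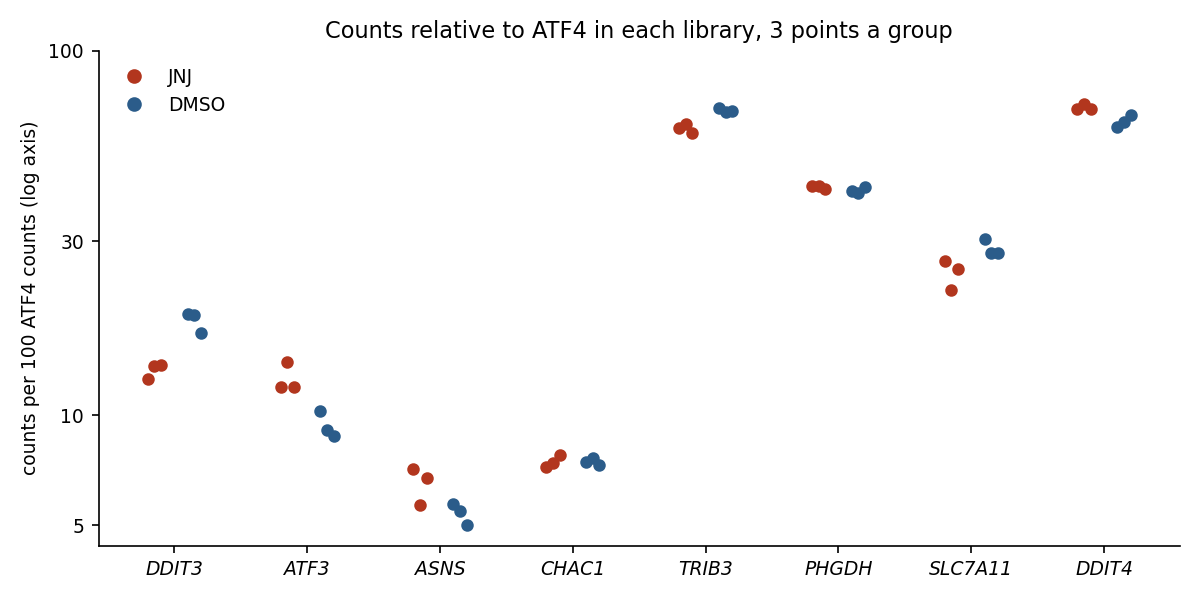
Counts of each gene per 100 ATF4 counts in the same library (y axis, log scale), 1 point per library, with inhibitor (JNJ) libraries in red to the left and DMSO libraries in blue to the right. DDIT3 averages 13.4 with the inhibitor and 18.2 with DMSO, and ATF3 12.6 and 9.39.

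Upstream of ATF4, 18 genes for eIF2, its kinases, its phosphatase subunits and its exchange factor eIF2B were all tested: 5 rose, 4 fell and 9 did not pass, with a median log2 fold change of 0.0038. GCN1, which activates the amino acid sensing kinase GCN2, rose to 220 ± 1.46 CPM, against 170 ± 1.63 CPM with DMSO (SD, n = 3 each; log2 fold change 0.37, adjusted p = 1.86e-07). PPP1R15A, the inducible phosphatase subunit GADD34 that reverses eIF2 phosphorylation, fell by 0.41 on the log2 scale (215 ± 10.8 CPM, against 286 ± 16.1 CPM; adjusted p = 4.76e-07). OMA1, the mitochondrial protease that cuts DELE1 in mitochondrial stress, rose by 0.46 (adjusted p = 0.000129), and DELE1 itself fell by 0.21 (adjusted p = 0.00106). EIF2B4, a subunit of eIF2B, rose by 0.32, and EIF2S3, the gamma subunit of eIF2, fell by 0.20 on the log2 scale.

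Of the eIF2 kinases only EIF2AK4, which encodes GCN2, was called, with a log2 fold change of 0.15 and an adjusted p of 0.0434. That call ended in 11 of 13 alternatives, including the replicate block (adjusted p = 0.0512), DESeq2 (0.100) and leaving out inhibitor replicate 1 (0.123), inhibitor replicate 3 (0.140), DMSO replicate 1 (0.0510), DMSO replicate 2 (0.219) or DMSO replicate 3 (0.117). The kinases EIF2AK1 and EIF2AK3 (PERK) had log2 fold changes of -0.11 (adjusted p = 0.0645) and -0.12 (adjusted p = 0.208), and EIF2AK2 of 0.02 (adjusted p = 0.749). EIF2B5 (0.14, adjusted p = 0.0245) and PPP1R15B, the constitutive phosphatase subunit (-0.14, adjusted p = 0.0271), were also called. EIF2B5 lost its call with upper-quartile scaling (0.192), no filter (0.0854) and without inhibitor replicate 1 (0.0579), DMSO replicate 2 (0.0979) or DMSO replicate 3 (0.128). PPP1R15B lost its call without inhibitor replicate 2 (0.0931), DMSO replicate 1 (0.127) or DMSO replicate 2 (0.0717). The count of genes called higher in the list was 3 with upper-quartile scaling, with no filter, and without inhibitor replicate 1, DMSO replicate 2 or DMSO replicate 3.

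Among 17 bZIP partners and relatives of ATF4 and CHOP, 2 rose, 5 fell and 10 did not pass, with a median log2 fold change of -0.02. ATF6B and ATF6, membrane-bound factors released by endoplasmic reticulum stress, fell by 0.40 and 0.21 on the log2 scale (adjusted p = 7.07e-07 and 0.000640). JUNB, a subunit of AP-1, rose to 407 ± 23.7 CPM, against 330 ± 12.0 CPM with DMSO (SD, n = 3 each; log2 fold change 0.30, adjusted p = 2.03e-05). The C/EBP genes CEBPA, CEBPB, CEBPD and CEBPG were not called, with log2 fold changes of -0.20, -0.08, 0.02 and -0.06. The count called higher was 1 with upper-quartile scaling and without inhibitor replicate 3, DMSO replicate 1 or DMSO replicate 2, and the count called lower was 3 without inhibitor replicate 1.

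The lists were chosen with earlier results of these data known, so their contrasts with all genes are descriptions only. The endoplasmic reticulum stress list showed more calls downward than upward, where all tested genes had 17.1% lower and 20.0% higher. Of 16 genes known to respond to such stress, mostly chaperones and degradation factors, 10 fell, 2 rose and 4 did not pass, with a median log2 fold change of -0.21. CALR, the calcium-binding chaperone calreticulin, fell to 556 ± 24.1 CPM, against 687 ± 30.3 CPM with DMSO (SD, n = 3 each; log2 fold change -0.31, adjusted p = 1.51e-05). PDIA4, a disulfide isomerase, fell by 0.28 (adjusted p = 4.20e-05). EDEM1, which sends misfolded glycoproteins to degradation, rose by 0.43 (71.8 ± 0.426 CPM, against 53.4 ± 1.01 CPM; adjusted p = 1.66e-07). The other gene that rose was SYVN1, named after its value was seen, at 0.13 on the log2 scale (adjusted p = 0.0354), and the count called higher was 1 in 9 of 13 alternatives, among them those without inhibitor replicate 2, inhibitor replicate 3, DMSO replicate 2 or DMSO replicate 3. The count called lower was 11 with upper-quartile scaling and without inhibitor replicate 2, 9 without inhibitor replicate 1 or DMSO replicate 1, and 10 in the other alternatives.

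Genes that ATF4 is known to raise were read by function, beside the 20.0% of all tested genes called higher and 17.1% called lower. Of 12 tRNA synthetase genes, which charge tRNAs with amino acids, 6 rose, 1 fell and 5 did not pass, with a median log2 fold change of 0.10. LARS1, the leucyl-tRNA synthetase, had 778, 736 and 781 CPM with the inhibitor, against 417, 423 and 435 CPM with DMSO, the largest change in this list. Its groups stood far apart, with a log2 fold change of 0.85 (SE 0.04, adjusted p = 4.12e-13). TARS1 and YARS1, for threonine and tyrosine, rose by 0.25 and 0.26 (adjusted p = 5.51e-05 and 7.92e-05). The 1 gene that fell was SARS1, named after its value was seen, at -0.16 (adjusted p = 0.00487). The count called higher was 4 with upper-quartile scaling and 5 with the replicate block. It was also 5 without inhibitor replicate 1, inhibitor replicate 3, DMSO replicate 1 or DMSO replicate 2.

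Of 8 amino acid transporters under ATF4, 2 fell and 6 did not pass, with a median log2 fold change of -0.08. None was called higher by edgeR, DESeq2 or limma-voom, and at an unadjusted p under 0.05 the count higher was 0 with each. SLC7A5, the leucine transporter LAT1, fell to 167 ± 4.03 CPM, against 189 ± 4.71 CPM with DMSO (SD, n = 3 each; log2 fold change -0.18, adjusted p = 0.00180). SLC1A5, the glutamine transporter ASCT2, fell by 0.13 on the log2 scale (adjusted p = 0.0268). SLC3A2, the heavy chain that SLC7A11 and SLC7A5 share, had a log2 fold change of -0.12 and an adjusted p of 0.0956. SLC1A5 lost its call without inhibitor replicate 1 (0.148), DMSO replicate 1 (0.0782) or DMSO replicate 2 (0.0723), which left 1 call, while upper-quartile scaling gave 5. SLC3A2 passed with upper-quartile scaling (0.0159), no filter (0.0203), without inhibitor replicate 2 (0.0111) or without DMSO replicate 3 (0.0430).

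Of 15 other targets of ATF4 or CHOP, 14 were tested, 4 rose, 1 fell and 9 did not pass, with a median log2 fold change of 0.02. KLHL24, a substrate adaptor of a ubiquitin ligase, rose by 0.39 (91.4 ± 4.78 CPM, against 69.6 ± 3.87 CPM; SD, n = 3 each; adjusted p = 2.16e-06). XPOT, which exports tRNAs from the nucleus, rose by 0.21 (adjusted p = 0.000357). SESN2, a stress-induced leucine sensor that restrains mTORC1, fell by 0.27 on the log2 scale (47.7 ± 2.07 CPM, against 57.6 ± 3.08 CPM; adjusted p = 0.000376). The count called lower was 5 with upper-quartile scaling, 3 with RLE scaling or no filter, 2 with a filter at CPM above 1, 4 without inhibitor replicate 2, and 2 without inhibitor replicate 3 or DMSO replicate 3.

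**Figure D4:**
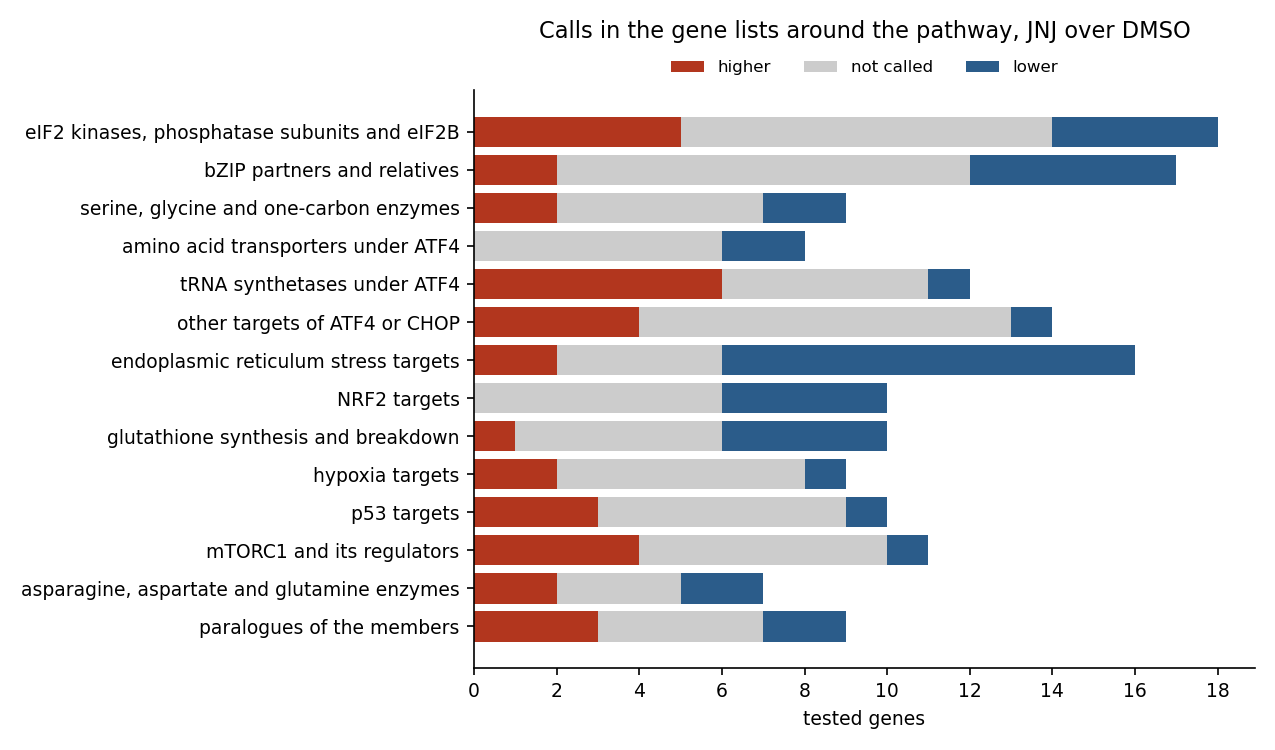
Number of tested genes (x axis) that were called higher (red), not called (grey) or called lower (blue) in each gene list around the pathway, by edgeR at an adjusted p under 0.05. The endoplasmic reticulum stress list has 10 genes lower of 16, and the tRNA synthetase list 6 higher of 12. Over all tested genes, 20.0% were called higher and 17.1% lower. The lists were chosen with earlier results of these data known.

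SLC7A11 and CHAC1 sit at the entry and the breakdown of the glutathione cycle, and the genes around them were read from lists that share GCLC and GCLM. Of 10 targets of NRF2, a second regulator of SLC7A11, 4 fell and 6 did not pass, with a median log2 fold change of -0.12. None was called higher by edgeR, DESeq2 or limma-voom, with counts at an unadjusted p under 0.05 of 1, 0 and 1. NQO1, a quinone reductase, fell to 27.7 ± 0.572 CPM, against 36.2 ± 1.53 CPM with DMSO (SD, n = 3 each; log2 fold change -0.39, adjusted p = 1.54e-05). GCLC, the catalytic subunit of the rate-limiting enzyme of glutathione synthesis, fell by 0.38 on the log2 scale (adjusted p = 3.83e-05).

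Of 10 genes of glutathione synthesis and breakdown, 4 fell, 1 rose and 5 did not pass, with a median log2 fold change of -0.16. CHAC2, the paralogue of CHAC1 that degrades glutathione more slowly, had 2.03, 1.96 and 2.29 CPM with the inhibitor, against 4.12, 3.30 and 3.60 CPM with DMSO. The groups did not overlap, and CHAC2 fell by 0.81 on the log2 scale (SE 0.18, adjusted p = 0.000804), while CHAC1 was not called. GSR, which regenerates reduced glutathione, fell by 0.22 (adjusted p = 0.00854). The 1 gene that rose, GPX4, was named after its value was seen (0.14, adjusted p = 0.0326), and no gene of the list was called higher with DESeq2, upper-quartile scaling, or without inhibitor replicate 2, inhibitor replicate 3, DMSO replicate 1 or DMSO replicate 2.

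Other paralogues of the members were also read. Of 12, 9 were tested, 3 rose, 2 fell (CHAC2 and SLC7A5) and 4 did not pass, with a median log2 fold change of 0.24. TRIB2 and TRIB1, pseudokinases related to TRIB3, rose by 0.42 and 0.24 (adjusted p = 0.000338 and 0.0110), while TRIB3 fell. The third was SLC7A7, a y+L amino acid transporter, at 2.18 ± 0.328 CPM, against 1.33 ± 0.184 CPM (SD, n = 3 each; log2 fold change 0.72, adjusted p = 0.0133). Without DMSO replicate 3 the count called higher was 1, since TRIB1 (adjusted p = 0.0671) and SLC7A7 (0.0589) no longer passed; TRIB1 also lost its call without inhibitor replicate 3 (0.0774) and SLC7A7 without inhibitor replicate 2 (0.0752).

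ASNS uses aspartate and glutamine, and of 8 genes for enzymes of these amino acids 7 were tested. Of these, 2 rose, 2 fell and 3 did not pass, with a median log2 fold change of -0.06. ASS1, which uses aspartate to make argininosuccinate, rose to 44.5 ± 1.67 CPM, against 32.3 ± 1.54 CPM with DMSO (SD, n = 3 each; log2 fold change 0.46, adjusted p = 7.87e-07). GOT2, the mitochondrial aspartate aminotransferase, fell by 0.22 on the log2 scale (adjusted p = 0.000795). The count called lower was 1 without inhibitor replicate 1 or DMSO replicate 2.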

How the data were processed

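The deposited values are raw read counts by gene, 6 libraries in 1 table, which the authors had not normalized. Tools named without a role, per the submitters' processing notes, are STAR 2.7.9a, featureCounts 1.6.0, FastQC 0.11.8, limma and edgeR. The notes name the mouse build GRCm39 although the identifiers are human, so the build is uncertain. Neither strand setting, annotation nor treatment of multi-mapping reads is given in the sources used here.

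Dropping 44 repeated identifiers without counts left 60605 genes. Of these, 60463 had a symbol in the name table. Genes passing filterByExpr (minimum count 10, minimum total 15) were kept, libraries were scaled by TMM, and groups were compared with edgeR 4.0.16 (R 4.3.3; glmQLFit, glmQLFTest) with Benjamini-Hochberg adjustment over all 17371 genes at 0.05. SE was the log2 fold change over the square root of F. The script was tested on simulated data. Alternatives used DESeq2 1.42.0, limma-voom 3.58.1, RLE or upper-quartile scaling, other filters, a replicate block and leaving out each library.

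Counts of replicates differed beyond sampling noise (chi-square of 2.68 to 8.93 per degree of freedom). The 10 members and all lists were chosen with earlier results of these data known. Named list genes are the 3 with the smallest p per list, plus all called genes of the eIF2, serine and paralogue lists; some list genes are not reported here. Promoters are from RefSeq (GRCh38.p14).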

Additional observations from a re-analysis of the deposited data

How the results depend on the processing

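Each tested member was recomputed under 13 alternatives, which gave 117 results, of which 108 kept their direction and their side of the threshold. ASNS lost its call in 6, and CHAC1 and PHGDH, never called, turned in sign in 3. Members called higher numbered 1 with DESeq2 and with upper-quartile scaling, against 2 in the main comparison, and between 1 and 2 when a library was left out. Members called lower numbered 3 throughout. Leaving out a library moved the log2 fold change of CHAC1 between -0.068 and 0.0083 and that of PHGDH between -0.038 and 0.0088. CHAC1 turned without inhibitor replicate 1, and PHGDH without inhibitor replicate 1 or DMSO replicate 3. The cause was not tested.

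Over all genes, 6448 were called, against 5646 with DESeq2, 6899 with upper-quartile scaling and 5304 to 6097 without a library. Upper-quartile scaling moved the median log2 fold change of all genes to -0.06, and 40.6% of its calls were higher, against 53.9% with TMM. With the replicate block, 6132 genes were called, and 2 members were higher and 3 lower. Same-numbered libraries did not deviate together (correlations -0.018, -0.014 and 0.002), so the numbers were not treated as pairs. With 3 libraries a group, small changes such as that of DDIT4 are not resolved, and PSAT1, at 11 counts or fewer, had too little depth for any statement on a change.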

Other observations

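DDIT4 also answers to hypoxia, p53 and growth factor signalling, and genes of those pathways were read beside it. Of 10 hypoxia targets, 9 were tested, 2 rose, 1 fell and 6 did not pass. Over all tested genes 20.0% rose and 17.1% fell, the background for this list and those that follow. VEGFA, the angiogenic growth factor, fell to 824 ± 4.75 CPM with the inhibitor, against 1142 ± 3.05 CPM with DMSO (SD, n = 3 each; log2 fold change -0.47, edgeR adjusted p = 4.79e-09). NDRG1 and KDM3A, a hypoxia-induced histone demethylase, rose by 0.44 and 0.30 on the log2 scale. Of 10 p53 targets, 3 rose, 1 fell and 6 did not pass. The cell cycle inhibitor CDKN1A rose by 0.22, the p53 ubiquitin ligase MDM2 by 0.24 and the exonuclease AEN by 0.27. The 1 that fell, ZMAT3 (-0.24), was named after its value was seen, and was not called without inhibitor replicate 3 or DMSO replicate 3.

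Of 12 genes of mTORC1 and its regulators, 11 were tested, 4 rose, 1 fell and 6 did not pass. The 1 that fell was SESN2, the same gene that fell among the other targets of ATF4 or CHOP. SESN1 is shared with the p53 targets. RPS6KB1, the S6 kinase that mTORC1 activates, rose to 81.6 ± 5.23 CPM, against 55.4 ± 1.93 CPM with DMSO (SD, n = 3 each; log2 fold change 0.56, edgeR adjusted p = 1.07e-08). TSC1 and AKT1S1, which both restrain mTORC1, rose by 0.42 and 0.38. MTOR and RPTOR were not called, at 0.05 and 0.01.

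The genes whose log2 CPM followed ATF4 most closely over the 6 libraries were SMARCD2 (r = 0.997), KLHL12 (r = 0.981) and OAZ1 (r = 0.976). They were taken from 5613 genes of high level, of which 67 had r above 0.9, and all points share the same libraries and scaling. ATF4 itself ranged only from 332 to 359 CPM and was not called, so these correlations follow small differences between libraries.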
